A study of Mus musculus with 15 samples.

Results

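The genes described here are 9 transcription factor genes whose expression marks regions of the brain and neural tube outside the eye, namely Foxd1, Emx2, Nkx2-1, Nkx2-2, En1, En2, Gbx2, Pax3 and Pax7. They were taken by symbol, with no threshold on their values, and they are 9 of the 23244 entries of the expression table. All 9 were found, each as 1 entry, and 6 of them (Foxd1, Emx2, En2, Gbx2, Pax3 and Pax7) reached 1 CPM (the depth-normalized unit of the table) in at least 3 libraries and could be tested. En1, Nkx2-1 and Nkx2-2 did not reach it. The question is whether eye tissue that is stimulated in culture changes its expression of factors that mark other neural regions.

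The tissue was grown from 1 mouse embryonic stem (ES) cell line, EB5 Rx::GFP+/-, by SFEBq, a floating culture in which dissociated ES cells reaggregate and form a neural epithelium. The line carries GFP as a reporter of Rax (also called Rx), the gene that marks the eye field, and all groups share this line and the same culture until Day 10. At Day 10 the GFP+ epithelium was cut out with forceps, without cell sorting, and either collected (Day 10 Rx::GFP+) or cultured on until Day 12 or Day 15. The +Wnt explants received the GSK3 inhibitor CHIR99201, which activates Wnt/β-catenin signalling, and the +Fgf explants received recombinant human bFgf together with fetal bovine serum (FBS). Each of the 5 groups held 3 libraries, labelled as biological triplicates, so 15 bulk RNA-Seq libraries were measured. No group was cultured beyond Day 10 without stimulation, so the effects of stimulation and of time against Day 10 cannot be told apart. Effects of Fgf and of FBS cannot be told apart either. In bulk tissue, fewer cells of a type and less RNA per cell give the same value.

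Region identity factors are DNA-binding proteins that the early neural tube expresses in bands and stripes, and each band goes on to form its own part of the brain. The eye field arises within the forebrain, next to the telencephalon and the hypothalamus, and Wnt and Fgf signals are among those that set the borders along the head to tail axis. Raised Wnt activity is known to favour dorsal and posterior identities, and Fgf8 from the midbrain-hindbrain boundary is known for maintaining the En and Gbx2 domains around it. Several of these factors also work outside the brain: Foxd1 is expressed in the temporal retina, Pax3 and Pax7 in neural crest and muscle precursors, and Gbx2 in ES cells.

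Library depth ranged from 12556998 to 16175450 counted reads, and a single read was worth 0.062 to 0.0764 CPM. The tissue labels were checked on marker genes. Tyr, the pigment enzyme tyrosinase, was at 542 to 667 CPM in Day 15 +Wnt and at 23.3 to 30.5 CPM in Day 15 +Fgf. Rax fell to between 5.15 and 5.83 CPM in Day 15 +Wnt, against 157 to 174 CPM at Day 10. No library went against its label on these genes.

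The levels of the 9 genes differed widely. Per kilobase of transcript, Emx2 had the highest mean in all 5 groups, at 23.7 ± 2.74 CPM per kb (SD, n = 3) at Day 10, 8.37 ± 4.05 in Day 12 +Fgf, 40.6 ± 6.73 in Day 12 +Wnt, 3.30 ± 3.22 in Day 15 +Fgf and 43.9 ± 5.61 in Day 15 +Wnt. The order below Emx2 changed with the group. At Day 10 Pax3 (1.46 ± 0.116 CPM per kb) and Pax7 (1.14 ± 0.179) came next, and in Day 12 +Wnt Pax3 (3.14 ± 0.458) and Foxd1 (1.63 ± 0.970). In Day 15 +Fgf, Gbx2 (2.46 ± 0.346 CPM per kb) was second and lay within the spread of Emx2, followed by En2 (0.915 ± 0.0824) and Nkx2-1 (0.467 ± 0.167). Nkx2-2 had the lowest mean in every group, or was level with others at 0.

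**Figure D1:**
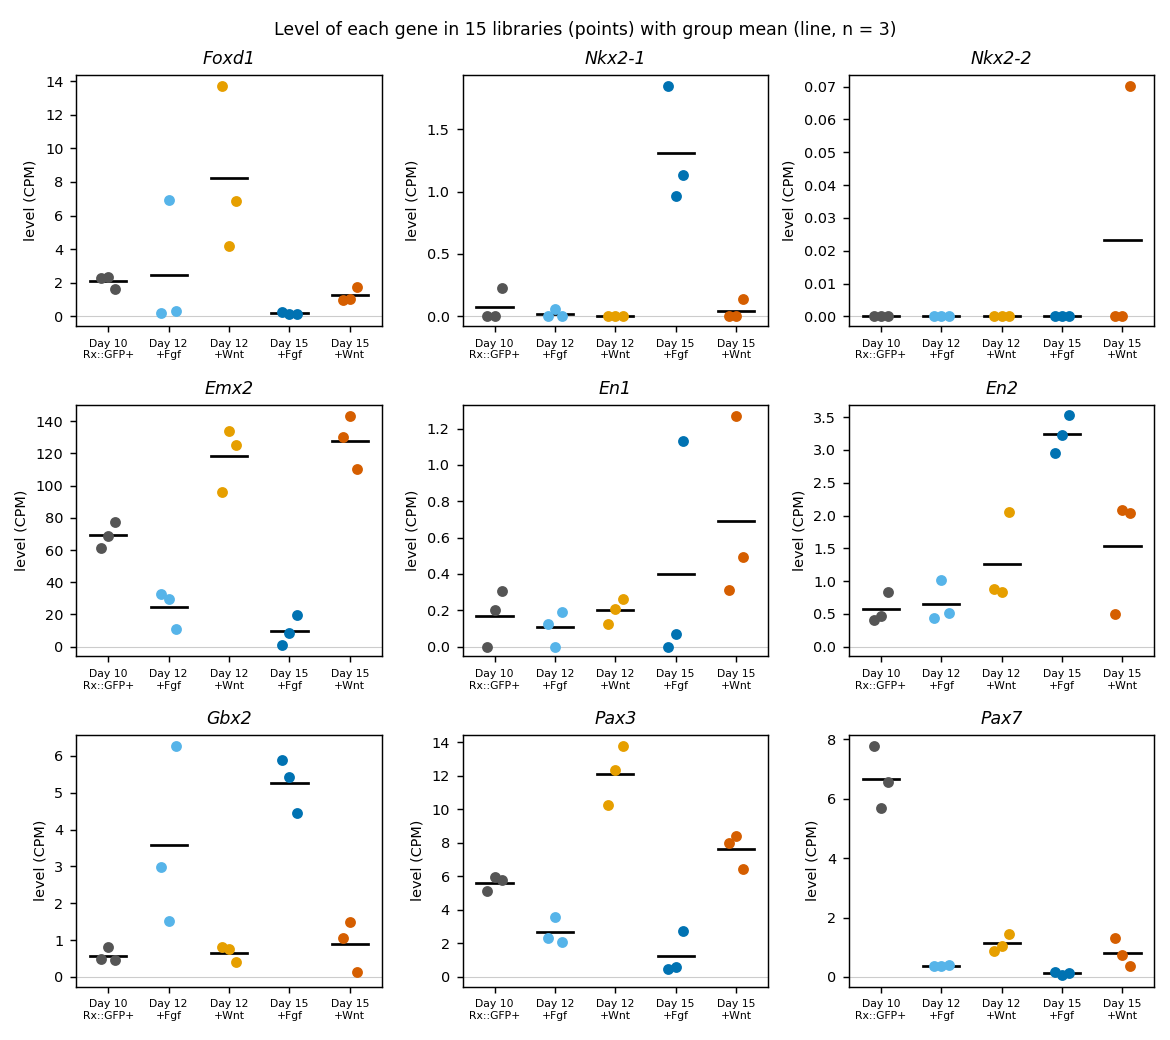
Level of each of the 9 genes (vertical axis, CPM, linear and different for each gene) in the 15 libraries (points) of the 5 groups (horizontal axis), with the group mean as a line (n = 3). Emx2 and Pax3 sit highest in the +Wnt groups, Gbx2 in the +Fgf groups, En2 and Nkx2-1 in Day 15 +Fgf, and Pax7 at Day 10. Nkx2-2 has 1 library above 0.

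Among the ventral forebrain factors, Nkx2-1 was higher in Day 15 +Fgf than in the other groups and Foxd1 was lower there than at Day 10. Both take part in forming the hypothalamus, and Nkx2-1 is also needed for the ventral telencephalon. Among the genes with a RefSeq promoter, they are the 2 with at least 200 bases before the RefSeq start free of annotated exons. These stretches are shown, from RefSeq sequence of the build GRCm38.p6, read 5′ to 3′ on the gene's strand with every CG in capitals. The first is chr12:56536909-56537158 (minus strand, 250 bases before Nkx2-1) and the second chr13:98353995-98354241 (plus strand, 247 bases before Foxd1).
Nkx2-1: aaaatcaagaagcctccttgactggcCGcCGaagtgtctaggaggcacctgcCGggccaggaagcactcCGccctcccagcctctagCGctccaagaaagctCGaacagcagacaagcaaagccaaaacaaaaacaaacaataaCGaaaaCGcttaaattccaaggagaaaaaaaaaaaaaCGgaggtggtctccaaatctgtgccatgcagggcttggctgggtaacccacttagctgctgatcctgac
Foxd1: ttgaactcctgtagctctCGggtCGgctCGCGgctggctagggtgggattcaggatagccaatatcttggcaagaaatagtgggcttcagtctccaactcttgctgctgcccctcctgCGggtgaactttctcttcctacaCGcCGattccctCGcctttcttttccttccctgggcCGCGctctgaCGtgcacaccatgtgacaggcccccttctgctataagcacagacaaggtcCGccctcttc
The Nkx2-1 stretch holds 9 CG pairs at 50.8% GC and the Foxd1 stretch 12 at 57.1% GC. A RefSeq promoter was available for 7 of the 9 genes (not for Pax3 and En2). The 250 bases before their RefSeq starts held 8 to 24 CG pairs, against a median of 6 over 32851 mouse promoters. By the gene annotation used for the positions, the windows of Emx2, Nkx2-2 and Pax7 lie inside the gene and overlap its exons. Those of En1, Gbx2 and Foxd1 overlap an exon of the gene in part.

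The promoters were searched on both strands for short words bound by factors that act at the end of the stimulated pathways. A TCF/LEF word, read by the DNA-binding partners of the Wnt pathway, was taken as CTTTGAT or its variant CTTTGAA, or as CTTTGTT or its variant CTTTGTA, and was in 14.8% of all promoters and in 0 of the 7. The ETS word CCGGAA, read by factors downstream of Fgf, was in 12.0% of all promoters and in 1 of the 7, that of En1. The homeodomain word TAATTA was in 4.84% of all promoters and in 0 of the 7. A word in or missing from these 250 bases describes this window only, which for most of these genes, En1 among them, overlaps annotated exons.

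Foxd1 (chromosome 13, 98354242 to 98359305, 1 exon, build GRCm38 as are all positions here) is a forkhead factor of the hypothalamic primordium and of the temporal retina. Its level was 2.32, 2.34 and 1.60 CPM at Day 10, 0.190, 6.94 and 0.319 CPM in Day 12 +Fgf, and 13.71, 4.18 and 6.88 CPM in Day 12 +Wnt. At Day 15 it was 0.295, 0.137 and 0.141 CPM in +Fgf and 0.993, 1.04 and 1.75 CPM in +Wnt. The Day 12 +Wnt libraries were all above those of Day 10, and the Day 15 +Fgf libraries, with 2 to 4 reads each, were below every library of Day 10 and of both +Wnt groups. On the log2(CPM + 0.3) scale, the difference of Foxd1 between Day 12 +Fgf and Day 12 +Wnt was -2.56 (SE 0.69, adjusted p = 0.00539 by limma after Benjamini-Hochberg), although these groups overlapped. It fell by 2.33 (log2, SE 0.69) from Day 12 to Day 15 in +Wnt (limma adjusted p = 0.00687), and in Day 15 +Fgf it was below Day 10 by a log2 difference of -2.28 (SE 0.69, limma adjusted p = 0.00723).

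A single library set much of the spread of Foxd1. Replicate 2 of Day 12 +Fgf held 109 reads of Foxd1, while the other 2 libraries of the group held 3 and 5. The log2 difference between Day 12 +Fgf and Day 10 was -0.86 (95% interval -2.33 to 0.61, limma adjusted p = 0.306) with this library and -2.10 (limma adjusted p = 0.000226) without it. Fezf1, a forebrain zinc finger gene, was at 6.94 CPM in the same library and at 0.317 and 0.383 CPM in the other 2. Fezf1 is among the genes most correlated with Foxd1 over these same libraries (r = 0.874), so its likeness here is in part fixed by that choice. Sim1, a factor of the paraventricular hypothalamus, was at 3.31 CPM in replicate 2 and at 0.127 and 0.0639 CPM in the other 2. The rise of Foxd1 in Day 12 +Wnt over Day 10 (log2 difference 1.70, SE 0.69, limma adjusted p = 0.0436) was lost in 11 of 16 alternative settings, and the difference between +Fgf and +Wnt at Day 15 (-1.65, SE 0.69, limma adjusted p = 0.0435) in 13 of 16, among them edgeR's count test (adjusted p = 0.0847).

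Nkx2-1 (chromosome 12, 56531958 to 56536908, minus strand, 3 exons) is the homeodomain factor that specifies hypothalamus and medial ganglionic eminence. It was at 1.84, 0.962 and 1.13 CPM in the 3 libraries of Day 15 +Fgf (14 to 25 reads each). In the other 12 libraries it had at most 3 reads: 0, 0 and 0.229 CPM at Day 10, 0, 0.0637 and 0 CPM in Day 12 +Fgf, 0 CPM in all 3 of Day 12 +Wnt, and 0, 0 and 0.140 CPM in Day 15 +Wnt. The Day 15 +Fgf libraries were thus above all others. Summed over 3 libraries, 55 reads in Day 15 +Fgf stood against 2 in Day 15 +Wnt, a ratio of 28.5 (exact 95% interval 7.52 to 241), and against 3 at Day 10, a ratio of 18.5 (6.02 to 92.6). These intervals cover counting error only. Nkx2-1 was below the filter, and when no filter was applied the log2 difference between Day 15 +Fgf and Day 15 +Wnt was 2.20 (limma adjusted p = 9.63e-07). The spread behind this p-value is shared over all groups, and every group but Day 15 +Fgf was at the limit of 3 reads per library. It thus does not measure the replicate variation of Day 15 +Fgf alone.

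Nkx2-2 (chromosome 2, 147177546 to 147194243, minus strand, 2 exons) marks the most ventral progenitors beside the floor plate. It had 0 reads in 14 of the 15 libraries, which allows a level of up to 0.186 to 0.229 CPM (3 reads) depending on the library, and 1 read (0.0702 CPM) in replicate 3 of Day 15 +Wnt. It was thus not detected above this limit in any group. The annotation places Nkx2-2os on the opposite strand across it.

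Emx2 (chromosome 19, 59458372 to 59465357, 3 exons) is a homeodomain factor of the dorsal telencephalon that is required for the hippocampus. It was the most highly expressed of the 9 and made up 6.5% to 91.4% of their summed CPM. Its level was 61.5, 68.7 and 77.5 CPM at Day 10, 32.5, 29.9 and 10.9 CPM in Day 12 +Fgf and 96.3, 134 and 125 CPM in Day 12 +Wnt. By Day 15 it was 0.811, 8.52 and 19.5 CPM in +Fgf and 130, 143 and 111 CPM in +Wnt. All +Fgf libraries were below all Day 10 libraries, and all +Wnt libraries were above them. In Day 15 +Fgf, Emx2 was below Day 15 +Wnt by a log2 difference of -4.46 (SE 0.67, limma adjusted p = 1.65e-05) and below Day 10 by -3.58 (SE 0.67, limma adjusted p = 0.000139). At Day 12 the difference between +Fgf and +Wnt was -2.40 (SE 0.67, limma adjusted p = 0.00657), and that between Day 12 +Fgf and Day 10 was -1.64 (SE 0.67, limma adjusted p = 0.0472). The last call was lost in 7 of 17 alternative settings, among them a pseudocount of 0.05 (limma adjusted p = 0.0648), no filter (0.0758) and moderation without a trend (0.0955).

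The higher values of Emx2 in +Wnt did not pass the limma test. The log2 difference from Day 10 was 0.76 (95% interval -0.65 to 2.18) in Day 12 +Wnt, with an adjusted p of 0.338 by limma, and 0.88 (-0.53 to 2.30) in Day 15 +Wnt, with an adjusted p of 0.234 by limma. edgeR's test on the reads gave adjusted p = 0.0645 and 0.0202 for the same differences. The 3 Day 15 +Fgf libraries spread over a range from 11 to 276 reads, and limma estimates 1 spread for Emx2 over all groups. Without replicate 1 of Day 15 +Fgf, the difference from Day 15 +Wnt became -3.27, and that from Day 12 +Fgf moved from -1.94 (SE 0.67, limma adjusted p = 0.0203) to -0.75 (limma adjusted p = 0.0900).

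The RNA integrity numbers that the study lists are lowest in 2 of the Day 15 +Fgf libraries. With that number as a covariate, the difference of Emx2 between +Fgf and +Wnt at Day 15 was -2.59 (limma adjusted p = 0.0788) and that between the Day 15 and Day 12 +Fgf groups 0.13 (limma adjusted p = 0.951). In the study's listing every Day 15 +Fgf library lies below every Day 12 +Fgf and every Day 15 +Wnt library in this number. Every Day 10 library likewise lies below every Day 12 and every Day 15 +Wnt library. RNA integrity and group thus cannot be told apart in comparisons between these groups, here or where this covariate is used below. The part of RNA integrity in these values was not tested further. Emx2os, an RNA on the opposite strand across Emx2, was listed at 0.0737 to 4.83 CPM, or 1.95% to 9.09% of Emx2 in the same library. The strand setting of the counting is not given in the sources used here, so reads of this pair cannot be told apart with certainty.

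The genes most like Emx2 were sought over the same libraries, so that their order within a group is in part fixed by the choice. Tnfrsf19, Wnt8b and Rspo2 had the highest correlation with Emx2 over the 15 libraries, with Pearson r of 0.988, 0.984 and 0.983, a description over libraries that fall into 5 groups. In replicates 1, 2 and 3 of Day 15 +Fgf, Wnt8b, a ligand of the telencephalic midline, was at 0.811, 4.40 and 8.34 CPM and Rspo2, a secreted enhancer of Wnt signalling, at 0.959, 4.74 and 9.33 CPM. Tbr1, a factor of cortical neurons, was at 0.885, 26.2 and 41.2 CPM and Emx1, the paralog of Emx2, at 0, 7.69 and 11.6 CPM. Emx1 is named after its values were seen. Replicate 1 was the lowest of the 3 for each of these genes and replicate 3 the highest. The order was not general, since Ttr was at 3.61, 121 and 66.6 CPM in the same libraries, highest in replicate 2. In Day 12 +Fgf, replicate 3 was the lowest for Emx2, Wnt8b, Rspo2, Tbr1 and Emx1.

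**Figure D2:**
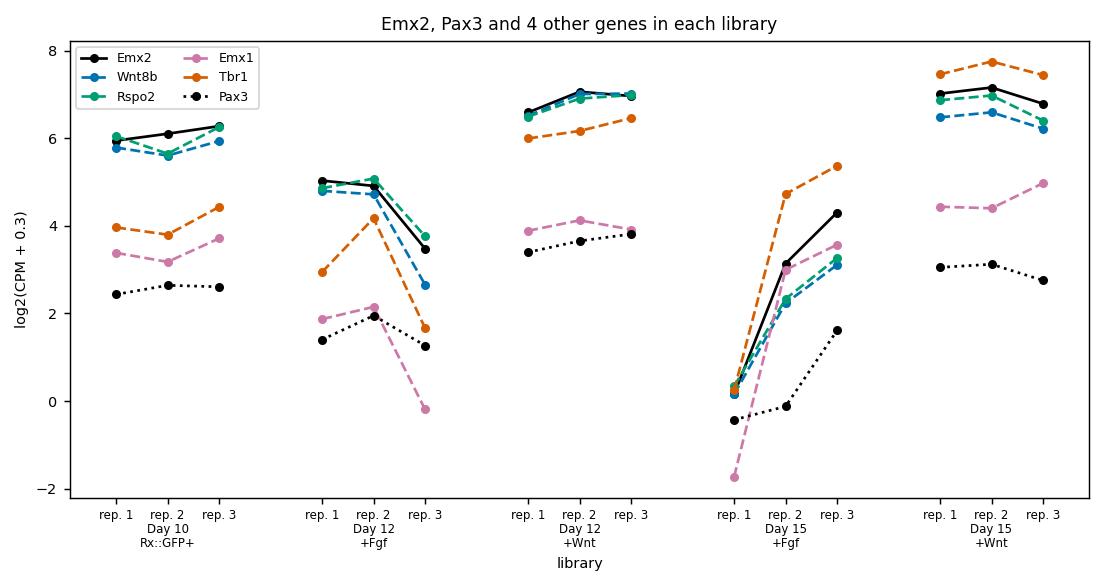
Level on the log2(CPM + 0.3) scale (vertical axis) of Emx2 and Pax3 (black) and of Wnt8b, Rspo2, Emx1 and Tbr1 (colours) in each of the 15 libraries (horizontal axis, joined by lines within a group). In Day 15 +Fgf all 6 genes have their lowest value in replicate 1 and their highest in replicate 3, where Emx2 ranges from 0.811 to 19.5 CPM.

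The midbrain-hindbrain boundary factors were all low. En2 (chromosome 5, 28165694 to 28172166, 2 exons) is a homeodomain repressor of the midbrain and cerebellum. Its level was 0.409, 0.468 and 0.841 CPM at Day 10, 0.444, 1.02 and 0.511 CPM in Day 12 +Fgf and 0.881, 0.835 and 2.05 CPM in Day 12 +Wnt. Day 15 values were 2.95, 3.23 and 3.53 CPM in +Fgf and 0.496, 2.09 and 2.03 CPM in +Wnt. The 3 Day 15 +Fgf libraries, with 40 to 50 reads each, were above all 12 others. En2 rose by 1.93 (log2, SE 0.39) from Day 12 to Day 15 in +Fgf (limma adjusted p = 0.000464), and Day 15 +Fgf was above Day 10 by 2.05 (SE 0.39, limma adjusted p = 0.000161). The difference between +Fgf and +Wnt at Day 15 was 1.10 (SE 0.39, limma adjusted p = 0.0187), and without replicate 1 of Day 15 +Wnt it was 0.58 (limma adjusted p = 0.140). Day 15 +Wnt was above Day 10 by 0.95 (SE 0.39, limma adjusted p = 0.0343), although the groups overlapped and quantile normalization took the difference to 0.06.

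En1 (chromosome 1, 120602418 to 120607992, 2 exons), the earlier partner of En2 in the same region, did not reach the filter. It was at 0, 0.201 and 0.306 CPM at Day 10, 0.127, 0 and 0.192 CPM in Day 12 +Fgf, and 0.126, 0.209 and 0.265 CPM in Day 12 +Wnt. In Day 15 +Fgf it was at 0, 0.0687 and 1.13 CPM and in Day 15 +Wnt at 0.310, 1.27 and 0.491 CPM. A single library of Day 15 +Fgf, replicate 3, held 16 reads while the other 2 held 0 and 1. The Day 15 +Wnt libraries, with 5 to 17 reads, were above those of Day 10 and Day 12 +Wnt and overlapped those of Day 15 +Fgf. The lowest of them, at 0.310 CPM (5 reads), was barely above the highest of Day 10, at 0.306 CPM (4 reads). When no filter was applied, Day 15 +Wnt did not pass against Day 10 (limma adjusted p = 0.0769) or against Day 12 +Wnt (limma adjusted p = 0.144).

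Gbx2 (chromosome 1, 89927956 to 89931179, minus strand, 2 exons) is a homeodomain factor that marks the hindbrain side of the midbrain-hindbrain boundary and later the thalamus. Its level was 0.477, 0.802 and 0.459 CPM at Day 10, 2.98, 1.53 and 6.26 CPM in Day 12 +Fgf and 0.818, 0.766 and 0.397 CPM in Day 12 +Wnt. Day 15 values were 5.90, 5.43 and 4.45 CPM in +Fgf and 1.05, 1.49 and 0.140 CPM in +Wnt. All +Fgf libraries were above all other libraries. The annotation places D130058E05Rik on the opposite strand across Gbx2, and reads of this pair cannot be told apart here. Gbx2 was higher in Day 12 +Fgf than at Day 10 by 1.97 (log2, SE 0.46, limma adjusted p = 0.00164) and than in Day 12 +Wnt by 1.86 (SE 0.46, limma adjusted p = 0.00283). At Day 15 it was above +Wnt by 2.43 (SE 0.46, limma adjusted p = 0.000167), or by 0.90 with RNA integrity as a covariate (limma adjusted p = 0.350). The difference between the +Wnt groups and Day 10 was 0.12 (95% interval -0.85 to 1.09) at Day 12 and 0.24 (-0.73 to 1.21) at Day 15. The residual pluripotent cell markers (Pou5f1, Nanog, Zfp42, Esrrb and Dppa5a), asked for because Gbx2 is also an ES cell gene, summed to 1.03 to 15.0 CPM in Day 15 +Fgf and 45.0 to 57.9 CPM at Day 10.

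Both Pax genes fell in +Fgf against Day 10, and in Day 12 +Wnt Pax3 was higher and Pax7 lower than at Day 10. Pax3 (chromosome 1, 78101267 to 78197134, minus strand, 8 exons) is a paired-box factor of the dorsal neural tube and neural crest. Its level was 5.11, 5.95 and 5.81 CPM at Day 10, 2.35, 3.57 and 2.11 CPM in Day 12 +Fgf and 10.25, 12.3 and 13.8 CPM in Day 12 +Wnt. Day 15 values were 0.442, 0.618 and 2.76 CPM in +Fgf and 8.003, 8.43 and 6.45 CPM in +Wnt. All +Wnt libraries were above all Day 10 libraries, and all +Fgf libraries were below them. Pax3 was higher in Day 12 +Wnt than at Day 10 by 1.06 (log2, SE 0.36, limma adjusted p = 0.0180), or by 0.58 with RNA integrity as a covariate (limma adjusted p = 0.293), and lower in Day 12 +Fgf by -1.02 (SE 0.36, limma adjusted p = 0.0236). Between +Fgf and +Wnt the difference was -2.08 (SE 0.36, limma adjusted p = 0.000132) at Day 12 and -2.63 (SE 0.36, limma adjusted p = 6.25e-06) at Day 15. The difference between Day 15 +Wnt and Day 10 was 0.41 (95% interval -0.35 to 1.18, limma adjusted p = 0.297).

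Replicate 3 of Day 15 +Fgf stood above the other 2 for Pax3, and also for Sox10, a defining gene of neural crest, with 3.04 CPM against 0.0737 and 0 CPM, and for Hoxb3, a hindbrain Hox gene, with 2.90 CPM against 0.148 and 0.275 CPM. Without this library the difference of Pax3 from Day 15 +Wnt was -3.25 (limma adjusted p = 1.46e-09). Of the 12 neural crest markers, 11 to 12 were above 0 in the Day 15 +Fgf libraries and 10 to 12 in Day 15 +Wnt. Their summed level was 198, 173 and 196 CPM in replicates 1, 2 and 3 of Day 15 +Fgf, an order that Sox10 did not share. In Day 15 +Wnt it was 152 to 160 CPM. In Day 15 +Wnt, where Pax3 was at 6.45 to 8.43 CPM, Sox10 was at 0 to 0.186 CPM and Foxd3, the other defining gene, at 0 to 0.124 CPM. Over the whole crest list, 6 of 9 tested genes were higher and 1 lower in Day 15 +Wnt than at Day 10. In this comparison 79.8% of all tested genes passed (39.6% higher and 40.2% lower). Among the higher crest genes were Tfap2b at 30.1 against 4.02 CPM and Ngfr at 26.7 against 8.91 CPM. The summed level of the crest list at Day 10 was 79.0 to 90.6 CPM. Of the somite and skeletal muscle list, 3 of 4 tested genes were higher and 0 lower in the same comparison, with the same shares over all genes. Among them were Meox2 at 25.9 against 6.22 CPM and Uncx at 7.61 against 1.11 CPM. The muscle list summed to 35.6 to 37.7 CPM in Day 15 +Wnt and 7.03 to 9.47 CPM at Day 10, while its muscle determination genes Myf5 and Myod1 were at 0 in Day 15 +Wnt. The part of these cell types in the level of Pax3 was not tested.

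Pax7 (chromosome 4, 139737062 to 139833528, minus strand, 9 exons) is the close relative of Pax3 that marks the dorsal midbrain and alar plate. Its level was 7.77, 5.68 and 6.57 CPM at Day 10 (85 to 114 reads), 0.380, 0.382 and 0.383 CPM in Day 12 +Fgf (6 reads in each) and 0.881, 1.04 and 1.46 CPM in Day 12 +Wnt. At Day 15 it was 0.147, 0.0687 and 0.141 CPM in +Fgf (1 to 2 reads) and 1.30, 0.746 and 0.351 CPM in +Wnt. Every stimulated library was below every Day 10 library. Against Day 10, Pax7 fell by 3.34 (log2, SE 0.28, limma adjusted p = 6.14e-08) in Day 12 +Fgf and by 2.30 (SE 0.28, limma adjusted p = 2.87e-06) in Day 12 +Wnt. At Day 15 it fell by 2.75 (SE 0.28, limma adjusted p = 9.26e-08) in +Wnt. In Day 15 +Fgf it was at the limit of 3 reads per library, with 5 reads over 3 libraries against 285 at Day 10, a ratio of 56.4 (exact 95% interval 23.9 to 175, counting error only).

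Pax7 was also lower in +Fgf than in +Wnt. The log2 difference was -1.05 (SE 0.28, limma adjusted p = 0.00486) at Day 12 and -1.30 (SE 0.28, limma adjusted p = 0.000549) at Day 15, or -0.60 after quantile normalization (limma adjusted p = 0.0784). The fitted value at Day 15 depends on the pseudocount because of the few reads in +Fgf. The reads themselves were 36 in +Wnt and 5 in +Fgf, a ratio of 6.95 (exact 95% interval 2.72 to 22.7).

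Set side by side at the same day, the +Fgf and +Wnt groups differed in most of the tested factors. At Day 12, Gbx2 was higher in +Fgf and Foxd1, Emx2, Pax3 and Pax7 were lower, so that 5 of the 6 tested genes passed, where 51.5% of all 13845 tested genes did (26.3% higher and 25.2% lower). At Day 15, Gbx2 and En2 were higher in +Fgf and Foxd1, Emx2, Pax3 and Pax7 lower, 6 of 6 against 68.7% of all tested genes (38.0% higher and 30.6% lower). edgeR called 5 of 6 on each day. Without 1 library at a time, 5 passed at Day 12 and 4 to 5 at Day 15, so the 6 of 6 depended on all libraries. With RNA integrity as a covariate, 3 passed at Day 15. The median size of the log2 difference was 1.97 over the 6 genes and 0.24 over all genes at Day 12, and 2.04 and 0.36 at Day 15. All genes were not matched to the 6 in level or spread. Whether the 6 differed more than genes of like level was not tested. The groups did not overlap for 4 of the 6 genes at Day 12 (60.4% of all genes) and for 6 of 6 at Day 15 (73.1%). En2 at Day 12 had a difference of -0.66 (95% interval -1.48 to 0.16, limma adjusted p = 0.168).

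**Figure D3:**
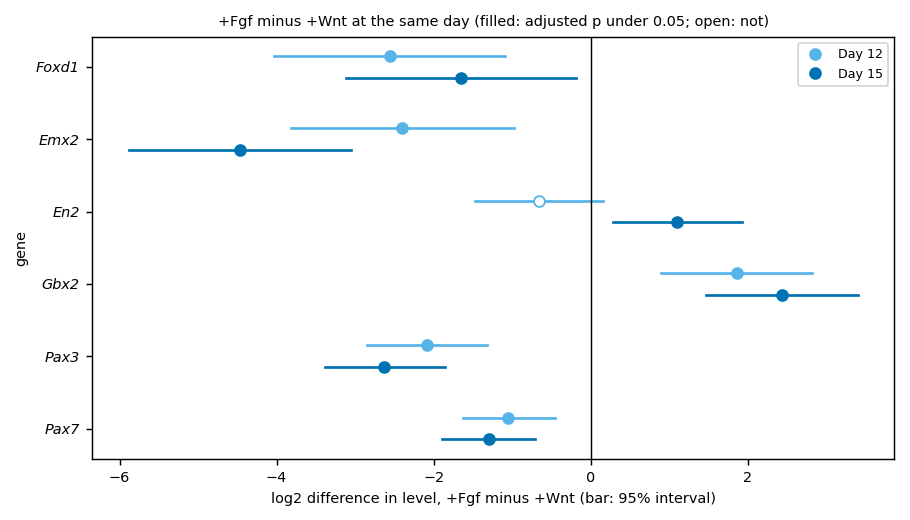
Log2 difference between +Fgf and +Wnt (horizontal axis, on the log2(CPM + 0.3) scale, with 95% intervals) for the 6 tested genes (vertical axis) at Day 12 and Day 15, with filled points for an adjusted p under 0.05. Emx2 lies lowest at Day 15, at -4.46, and Gbx2 highest, at 2.43. En2 at Day 12 is the open point.

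Against Day 10, the tested factors divided as follows. In Day 12 +Fgf, Gbx2 rose and Emx2, Pax3 and Pax7 fell, 4 of 6 genes where 55.7% of all tested genes passed (27.9% rose and 27.8% fell), and 4 did not overlap Day 10 (61.0% of all genes). In Day 12 +Wnt, Foxd1 and Pax3 rose and Pax7 fell, 3 of 6 where 60.2% of all genes passed (30.6% rose and 29.6% fell), and 4 did not overlap Day 10 (64.3% of all genes). In Day 15 +Fgf, En2 and Gbx2 rose and Foxd1, Emx2, Pax3 and Pax7 fell, 6 of 6 where 72.6% passed (36.2% rose and 36.4% fell), and 6 did not overlap (73.8%). In Day 15 +Wnt, En2 rose and Pax7 fell, 2 of 6 where 79.8% passed (39.6% rose and 40.2% fell), and 3 did not overlap (80.6%). edgeR called 3 of 6 in this comparison, and limma fitted to only the compared groups called 5. These 4 comparisons share the Day 10 libraries. Whether the counts differ between +Fgf and +Wnt was not tested. The median size of the log2 difference over the 6 genes was 1.33, 0.92, 2.47 and 0.76 in this order, against 0.26, 0.30, 0.43 and 0.58 over all genes, again without a match in level or spread.

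**Figure D4:**
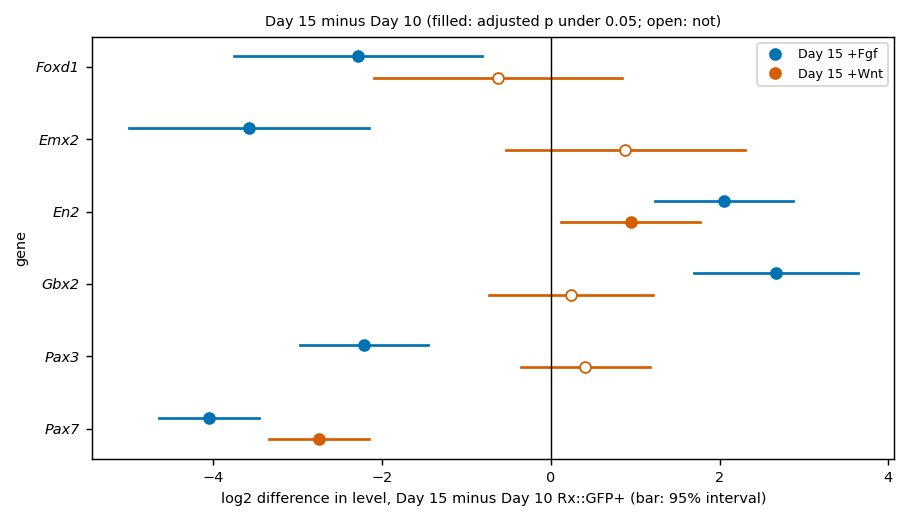
Log2 difference from Day 10 Rx::GFP+ (horizontal axis, on the log2(CPM + 0.3) scale, with 95% intervals) in Day 15 +Fgf and Day 15 +Wnt for the 6 tested genes (vertical axis), with filled points for an adjusted p under 0.05. All 6 points of +Fgf are filled, and of +Wnt those of En2 (0.95) and Pax7 (-2.75).

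From Day 12 to Day 15, En2 rose in +Fgf and Emx2, Pax3 and Pax7 fell, 4 of the 6 genes where 57.1% of all tested genes passed (27.2% rose and 29.9% fell), and 2 did not overlap between the days (63.7% of all genes). Pax3 fell by 1.19 (log2, SE 0.36, limma adjusted p = 0.00985) and Pax7 by 0.71 (SE 0.28, limma adjusted p = 0.0394). Pax7 was at the limit of 3 reads per library in Day 15 +Fgf, so its fitted value depends on the pseudocount (-0.31 with a pseudocount of 1). Its reads were 18 in Day 12 +Fgf and 5 in Day 15 +Fgf, a ratio of 3.23 (exact 95% interval 1.16 to 11.1, counting error only). The call for Pax7 was lost in 9 of 16 alternative settings, and that for Pax3 was lost without replicate 1 of Day 15 +Fgf (-0.80, limma adjusted p = 0.0622) and with RNA integrity as a covariate (-0.19, limma adjusted p = 0.875). In +Wnt, Foxd1 fell and no other member passed, 1 of 6 where 68.0% of all genes passed (32.5% rose and 35.5% fell), and 2 did not overlap (72.8%). The difference of Emx2 over these days in +Wnt was 0.12 (95% interval -1.30 to 1.53).

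The change from Day 12 to Day 15 differed between the stimulations for 1 of the 6 genes, where 47.9% of all tested genes passed (27.0% upward and 20.9% downward). En2 changed by 1.76 more in +Fgf than in +Wnt (log2, SE 0.55, limma adjusted p = 0.0144). For Emx2 the difference of the changes was -2.06 (95% interval -4.06 to -0.06, limma adjusted p = 0.0832). Nkx2-1, when no filter was applied, had a difference of 2.11 (limma adjusted p = 0.000131). Only Day 15 +Fgf was above the detection limit for this gene, so the p-value has the same limit as that given above for Nkx2-1.

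To set the 9 genes in their regions, lists of markers for 7 regions of the brain and neural tube were counted, which hold 88 genes besides the 9. The counts of each list below include the members it holds. Of the 52 that were tested, 15 were higher and 25 lower in Day 15 +Fgf than in Day 15 +Wnt, and 13 were higher and 28 lower at Day 12. Over all tested genes, 38.0% were higher and 30.6% lower at Day 15 and 26.3% and 25.2% at Day 12, and lists such as that of the midbrain lie near these shares. In the telencephalon list, 3 genes were higher and 5 lower of 10 tested at Day 15. Dlx1 and Dlx2, factors of the ventral telencephalon that retinal neurons also express, were higher in +Fgf at 36.9 against 0.187 CPM and 38.5 against 0.915 CPM (group means), while Tbr1 was lower at 22.8 against 189 CPM and Gsx2 at 1.58 against 24.2 CPM. At Day 12, 3 were higher and 7 lower of 10.

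The hypothalamus and ventral forebrain list, which holds Foxd1, Nkx2-1 and Nkx2-2, had 2 genes higher and 5 lower of 8 tested at Day 15 (3 and 4 at Day 12). The higher ones were Rax and Six3, which the eye field shares. Fezf1 was lower in Day 15 +Fgf, at 0.331 against 8.57 CPM, as was Sim1 at 0.0464 against 1.48 CPM. In the thalamus and caudal diencephalon list, 3 were higher and 4 lower of 10 at Day 15 (3 and 6 at Day 12). Beside Gbx2, Tcf7l2 was higher at 20.0 against 10.6 CPM, and Lhx9, another early thalamic factor, was lower at 7.02 against 43.7 CPM.

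The midbrain and midbrain-hindbrain boundary list had 5 genes higher and 5 lower of 13 tested at Day 15 (4 and 5 at Day 12). Pax2, which also marks the optic stalk, was higher at 34.7 against 0.681 CPM, and Pax8 at 5.38 against 0.164 CPM. Lmx1a, a factor of the roof plate and floor plate, was lower at 1.24 against 23.7 CPM, and Dmbx1 at 0.257 against 5.57 CPM. The hindbrain and spinal cord list had 4 of 20 genes tested, with 1 higher and 2 lower at Day 15 (1 and 1 at Day 12). Ptf1a, also a factor of retinal amacrine and horizontal cells, was higher at 6.72 against 0.0704 CPM, and Hoxb3 was lower at 1.11 against 3.29 CPM.

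The dorsal neural tube list, which holds Pax3 and Pax7, had 2 genes higher and 10 lower of 15 tested at Day 15, with a median log2 difference of -1.30 against 0.05 over all genes. At Day 12, 0 were higher and 11 lower of 15, with a median of -1.37. Wnt3a, a ligand of the roof plate and cortical hem, was lower in Day 15 +Fgf at 0.517 against 13.2 CPM, as was Msx1 at 1.55 against 10.8 CPM. The ventral neural tube list, which holds Nkx2-2, had 2 genes higher and 3 lower of 6 at Day 15 (1 and 4 at Day 12). Olig2 was higher in Day 15 +Fgf, at 21.3 against 1.09 CPM, and Dbx1 was lower, at 0.747 against 4.499 CPM.

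**Figure D5:**
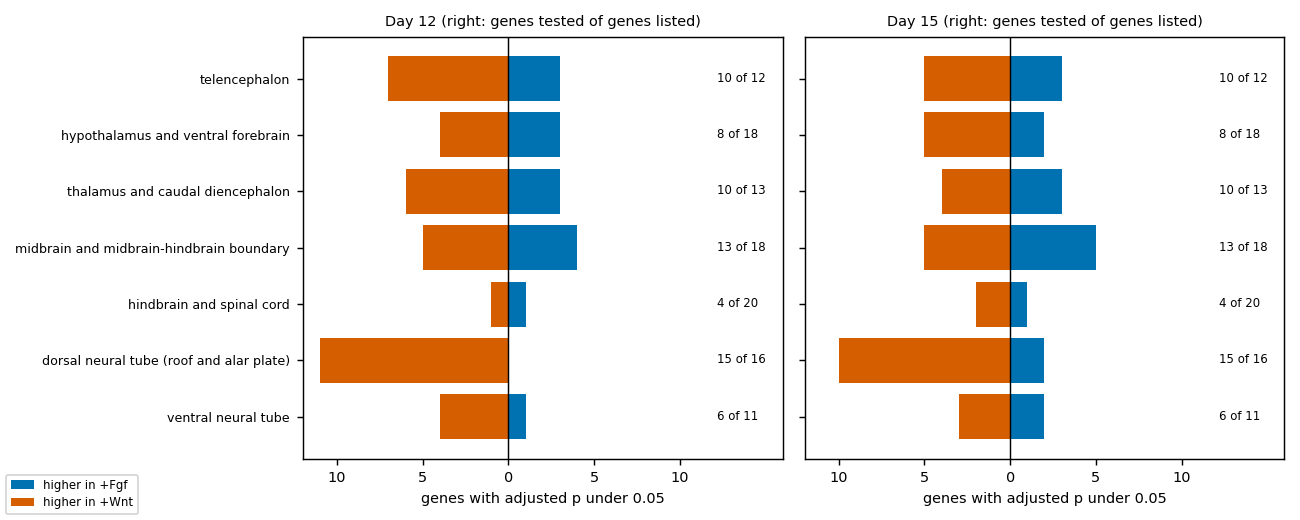
Number of genes in each of 7 region lists (vertical axis) that were higher in +Fgf (right) or in +Wnt (left) with an adjusted p under 0.05, at Day 12 and Day 15 (horizontal axis, genes), with the number tested of the number listed at the right. The dorsal neural tube list has 10 genes higher in +Wnt and 2 in +Fgf at Day 15.

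Markers of cell types that the tissue could hold also differed between the groups. At Day 15, where 38.0% of all tested genes were higher in +Fgf and 30.6% lower, all 8 tested genes of the eye field and retina list and all 8 of the retinal ganglion cell list were higher in +Fgf, and all 7 tested genes of the pigment epithelium and all 7 of the choroid plexus list were higher in +Wnt. The choroid plexus arises next to the Emx2 and Wnt8b domain, and its markers summed to 1150 to 1671 CPM in Day 15 +Wnt and 146 to 291 CPM in Day 15 +Fgf. This list shares Ttr and Otx2 with the pigment epithelium list, and Ttr alone was at 749 to 1231 CPM in Day 15 +Wnt, most of the sum. Of the melanoblast list, 1 gene was higher and 5 lower of 6 in +Fgf, of the neural crest list 2 and 2 of 9, of the somite and muscle list 0 and 1 of 4, of the stromal list 0 and 6 of 8, and of the residual pluripotent cell list 0 and 5 of 5. The part of these cell types in the levels of the 9 genes was not tested.

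The genes closest to the other tested members over the 15 libraries were found by Pearson correlation, again as a description. They were Rspo3, Msx1as and Rfx4 for Pax3 (r of 0.974, 0.971 and 0.969), and Ccng1, Zmat3 and Rwdd4a for Pax7 (0.981, 0.973 and 0.969). For Gbx2 they were Rasd1, Fam184a and Jup (0.929, 0.928 and 0.928), for En2 Snapc3, C030039L03Rik and Pgbd5 (0.911, 0.897 and 0.893), and for Foxd1 Zfp652, Fezf1 and Fam181a (0.908, 0.874 and 0.869). Ccng1 was at 763 to 795 CPM at Day 10 and at 165 to 349 CPM in the stimulated libraries, the same split as that of Pax7. Among the 9 genes themselves, Emx2 and Pax3 had the highest r, 0.94, and Gbx2 had an r of -0.81 with each of them. These values follow the 5 group means, which all genes share.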

How the data were processed

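RNA-Seq libraries of 15 samples (5 groups of 3) were grouped by their labels. The authors mapped reads to mm10 with TopHat2 2.0.8b, estimated fragments per gene of the UCSC transcriptome with Cuffdiff (Cufflinks 2.1.1) and normalized them with edgeR 3.2.4. The deposited values, named CPM, are a normalized signal whose column totals ran from 936418 to 1075448. Divided by the value of 1 read, 100% of them came out whole within 0.01 read, so read counts per gene were recovered from what the authors deposited. How strand was used in counting is not given in the sources used here.

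Entries were tested if 3 or more libraries held 1 CPM or more relative to the summed column, 13845 of 23244. Because the deposited values are not raw counts, limma (3.58.1, R 4.3.3) was fitted to log2(CPM + 0.3) with 5 group means, trend moderation and two-sided Benjamini-Hochberg adjustment over all tested genes within a comparison (threshold 0.05). All 15 libraries shared 1 estimate of spread. edgeR (4.0.16) quasi-likelihood tests on the recovered reads were an alternative. A group with at most 3 reads in each library was taken as at the detection limit. Fold changes understate changes of low genes. Intervals of read ratios are exact binomial at 95%. All members are named. Of each marker list, at most 3 higher and 3 lower genes with the largest differences and at least 1 CPM were eligible to be named, as were the 3 genes most correlated with each member. The members and the lists were chosen with earlier results of these data known. Alternatives covered the pseudocount, filters, normalization, moderation, RNA integrity, the replicate number, the samples fitted and leaving out each library. The procedure was also run on simulated counts with the same spread for all genes and changes in Day 15 +Fgf only. This does not test it at the spread or the share of changed genes seen here. Positions come from GENCODE vM21 and RefSeq, both on the GRCm38 assembly (mm10). Python 3.11.15 (pandas 2.3.3, matplotlib 3.10.9) was used. Replicates of a group differed by more than counting error in all 15 pairs (chi-square per degree of freedom 2.79 to 8.85).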

Additional observations from a re-analysis of the deposited data

Results flagged for a closer look

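The change of En2 from Day 12 to Day 15 differed between the stimulations by 1.76 on the log2 scale (limma Benjamini-Hochberg adjusted p = 0.0144). En2 rose from a mean of 0.658 to 3.24 CPM in +Fgf, and in +Wnt it was at a mean of 1.26 CPM at Day 12 and 1.54 CPM at Day 15. The 3 Day 15 +Fgf libraries were above all 3 Day 12 +Fgf libraries, and the +Wnt groups overlapped. The difference stayed past the threshold in all 22 alternative settings, with values from 1.23 to 3.03 and adjusted p up to 0.0453.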

How the results depend on the processing

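Of 32 member differences past the threshold, 19 kept direction and call under every alternative and 13 lost the call or changed sign under at least 1. The cause was not tested.

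With at least 10 CPM required in 3 libraries, only Emx2 and Pax3 could be tested, and the members past the threshold became 2 of 2 against Day 10 in Day 12 +Fgf (from 4), 1 in Day 12 +Wnt (from 3), 2 in Day 15 +Fgf (from 6) and 0 in Day 15 +Wnt (from 2). They became 2 for the +Fgf change over time (from 4), 0 for the +Wnt change (from 1), 2 and 2 for +Fgf against +Wnt at Day 12 and 15 (from 5 and 6), and 0 for the difference of the changes (from 1). With RNA integrity as a covariate they were 1 for Day 12 +Wnt and 1 for Day 15 +Wnt against Day 10, 1 for the +Fgf change and 3 for Day 15 +Fgf against +Wnt, and the genes past the threshold overall were 3591 in place of 7899 for the +Fgf change and 3842 in place of 6636 for the difference of the changes. With only the compared groups fitted, the members were 5 for Day 15 +Wnt against Day 10, 1 for the +Fgf change and 2 for the +Wnt change. Moderation without a trend gave 1 for Day 15 +Wnt against Day 10, a pseudocount of 1 gave 2 for the +Wnt change, quantile normalization gave 3 for the +Wnt change and 2 for the difference of the changes, and no filter gave 2 for the latter.

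Without 1 library at a time, the members past the threshold ranged from 2 to 5 (Day 12 +Fgf against Day 10), 1 to 3 (Day 12 +Wnt), 1 to 2 (Day 15 +Wnt), 1 to 5 (+Fgf change), 1 to 2 (+Wnt change) and 1 to 3 (difference of the changes). For Day 15 +Fgf against Day 15 +Wnt the members past the threshold were 4 to 5, below the 6 of the main fit. They were 2 for Day 12 +Fgf against Day 10 without Day 10 replicate 2 or 3 or Day 12 +Fgf replicate 3, and 1 for Day 12 +Wnt without Day 10 replicate 1 or Day 12 +Wnt replicate 3. They were 1 for Day 15 +Wnt without Day 10 replicate 1 or 2 or Day 15 +Wnt replicate 2 or 3, and 2 for the +Wnt change without Day 15 +Wnt replicate 1. The +Fgf change had 2 without Day 12 +Fgf replicate 2 or Day 15 +Fgf replicate 2 and 1 without Day 15 +Fgf replicate 1. The difference of the changes had 2 without Day 12 +Fgf replicate 2 or 3 and 3 without Day 15 +Fgf replicate 3.

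Single libraries ended several calls. For Emx2 in Day 12 +Fgf against Day 10 these were each Day 10 library and replicate 3 of Day 12 +Fgf (-1.72 to -1.14), and in the +Fgf change replicates 1 and 2 of Day 12 and replicate 1 of Day 15 (-1.72 to -0.75). For Pax3 against Day 10 they were Day 10 replicates 2 and 3 and replicates 1 and 3 of Day 12 +Fgf (-1.0 to -0.89), and in +Wnt Day 10 replicate 1 and Day 12 +Wnt replicate 3 (1.00 and 0.97). For Pax3 in the +Fgf change they were replicates 1 and 2 of Day 15 +Fgf (-0.80 and -0.95). For En2 in Day 15 +Wnt against Day 10 they were Day 10 replicates 1 and 2 and Day 15 +Wnt replicates 2 and 3 (0.68 to 0.87), and between the Day 15 groups +Fgf replicate 3 (1.04) and +Wnt replicate 1 (0.58). For Foxd1 they were all Day 10 libraries and replicates 1 and 3 of Day 12 +Wnt in that comparison (1.26 to 1.78) and each Day 15 library between the Day 15 groups (-1.80 to -1.44), and for Pax7 each library of the +Fgf change (-0.76 to -0.62).

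Of the called differences, Emx2 changed sign once, to 0.13 for the +Fgf change with RNA integrity as a covariate. The other changes of sign were in differences that had not passed. With RNA integrity as a covariate they were En2 in Day 12 +Fgf against Day 10 (-0.62), Emx2 in Day 12 +Wnt (-0.23) and Day 15 +Wnt (-0.16), Pax3 in Day 15 +Wnt (-0.09), Gbx2 in the +Fgf change (-1.0), and Emx2 (0.06), Gbx2 (-1.16) and Pax3 (0.48) in the difference of the changes. With quantile normalization they were Gbx2 in Day 12 +Wnt (-0.10) and Day 15 +Wnt (-0.60) and Pax3 in Day 15 +Wnt (-0.29) against Day 10, En2 and Gbx2 in the +Wnt change (-0.51 each) and Pax7 in the difference of the changes (0.32). With edgeR they were Foxd1 in Day 12 +Fgf against Day 10 (0.23) and in the difference of the changes (-0.98).

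Without 1 library at a time, these ranges crossed 0: En2 from -0.14 to 0.33 in Day 12 +Fgf, Gbx2 from -0.01 to 0.33 in Day 12 +Wnt and from -0.17 to 0.85 in Day 15 +Wnt against Day 10, Emx2 from -0.02 to 0.22, En2 from -0.10 to 0.69 and Gbx2 from -0.28 to 0.73 in the +Wnt change, and Pax7 from -0.59 to 0.06 and Gbx2 from -0.03 to 1.05 in the difference of the changes.

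Groups share replicate numbers, but libraries with the same number did not deviate together (30 pairs, r from -0.25 to 0.24, median -0.01). Libraries with different numbers gave r from -0.33 to 0.29 (60 pairs, median -0.01). The main fit did not pair libraries by number, and this check cannot show whether replicates were prepared together. With a replicate block, Foxd1 lost its call in Day 12 +Wnt against Day 10 (adjusted p = 0.0530) and in Day 15 +Fgf against +Wnt (adjusted p = 0.0529), and the members past the threshold were 2 and 5. It changed no other member call. No scaling moved the median of all genes by more than 0.10. Depth limits the values of Nkx2-1, Nkx2-2, En1, Foxd1, Gbx2 and Pax7 in the groups where a library held only a few of their reads. Gbx2 went down to 2 reads in Day 15 +Wnt, Pax3 to 6 in Day 15 +Fgf and En2 to 6 at Day 10.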
